A study of Mus musculus with 2 samples.

Results

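Accessible chromatin was described at 10 genes of the epidermal growth factor (EGF) receptor family and its ligands, of 21938 protein-coding genes annotated in the mouse. They are the 3 receptor genes Egfr, Erbb2 and Erbb3 and the 7 ligand genes Areg, Ereg, Btc, Epgn, Hbegf, Tgfa and Nrg1. The genes were chosen by name as members of the family, with earlier results of these data known but with no threshold on a measured value. The locus of each is its gene body with 20 kb on either side. The data are DNase-seq, in which the nuclease DNase I cuts DNA where nucleosomes leave it free and the cut ends are sequenced. The tissue was urinary bladder of male mice aged 14 days, all of the cross B6CASTF1/J, a first-generation hybrid of the inbred strains C57BL/6J and CAST/EiJ. There was 1 group of 2 biological replicates and no treatment, genotype or time to compare. The label of replicate 1 names a male in the singular and that of replicate 2 names 3 males, and the 2 parental alleles of each gene were not separated.

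The receptors of this family sit in the cell membrane, pair when a ligand binds and then phosphorylate each other, which starts the RAS-ERK and PI3K pathways inside the cell. The ligands are made as membrane-anchored precursors that proteases cut free, so that most act on the same or on neighbouring cells. In the bladder the family is known for its part in the growth and repair of the urothelium, the epithelium that lines the organ. ErbB2 has no known ligand of its own and ErbB3 has little kinase activity, so both work as partners of other receptors, while neuregulin 1, the product of Nrg1, binds ErbB3 and ErbB4.

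For each library the deposited files give peaks, which are stretches of accessible chromatin with a signal value, footprints, which are short protected stretches within them, and positions at a false discovery rate (FDR) of 0.05 or lower. A region is called shared where peaks of both replicates overlap, and a promoter is called open where a shared region is found at most 1 kb from a start site of transcription (TSS) in the annotation. Replicate 1 had 139821 peaks and replicate 2 had 82225. Signals came in whole multiples of a step of 0.00521 (replicate 1) or 0.00799 (replicate 2). Were a step to stand for 1 cut after scaling to an equal total, which the labels do not record, replicate 1 would be 1.54 times as deep. The number of reads of either library was not given in the sources used here. Over all 73164 shared regions the signal was higher in replicate 1, by a median of 0.30 on the log2 scale (SD over regions 0.42). As a check of the tissue, marker promoters were read beside the 66.1% of all protein-coding genes that had an open promoter. Open were those of 13 of 15 urothelial, 9 of 9 smooth muscle and 8 of 8 stromal marker genes. So were those of 3 of 6 endothelial and 1 of 6 immune ones (Lcp1, within 1 kb of a start of Lrrc63 too). None of 5 hepatocyte ones had a promoter peak in either replicate. Krt20 and Trp63, markers of superficial and basal urothelium, had promoter peaks in replicate 1 alone, and of the nerve and glia markers S100b, Elavl4 and Tubb3 had open promoters while Sox10 had no promoter peak in either replicate. In whole tissue, a region open in few cells and a region weakly open in many cannot be told apart.

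The promoters of 9 of the 10 genes were open, and the exception was Epgn. Of all 21938 protein-coding genes 66.1% had an open promoter. By the mean of the replicates the order ran Hbegf, Erbb2, Egfr, Nrg1, Erbb3, Tgfa, Btc, Areg and Ereg. From Erbb2 through Egfr, Nrg1 and Erbb3 to Tgfa, each gene differed from the next by less than the larger of their SDs. The steps from Hbegf to Erbb2, from Tgfa to Btc, from Btc to Areg and from Areg to Ereg were larger than that. The median over the 9 open promoters was 2.71, against 4.61 over all 14500 open promoters, and Hbegf alone of the 9 lay above that median. Replicate 1 was higher at all 9. After each replicate was divided by its median over shared regions, the log2 ratio of replicate 1 to replicate 2 at these promoters ran from -0.34 at Btc to 0.02 at Erbb2.

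**Figure D1:**
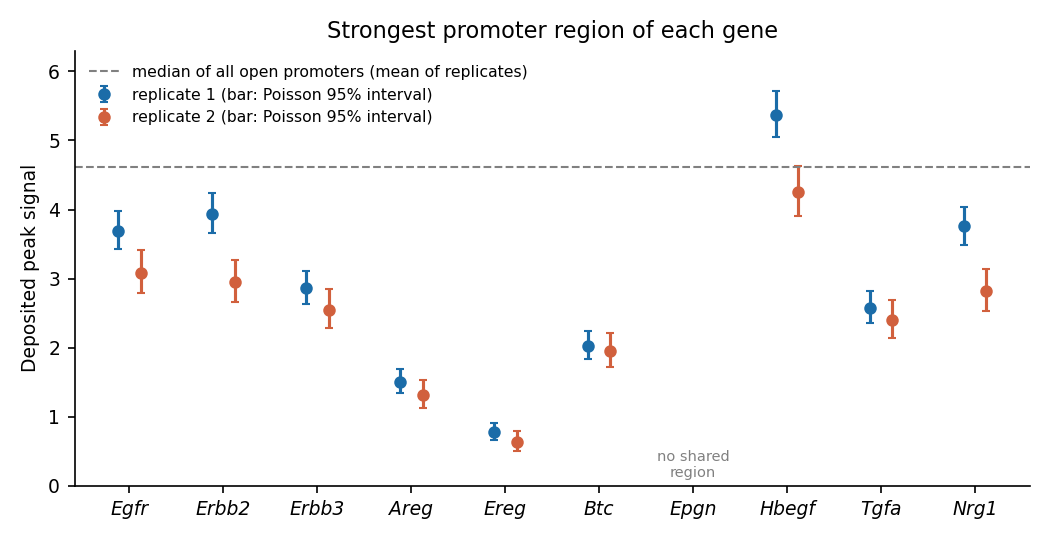
Deposited peak signal (no unit given) at the strongest promoter region of each gene, 1 point per replicate with its Poisson 95% interval, which covers counting error only and assumes 1 cut per step. The dashed line is the median over all open promoters, 4.61, and among the genes shown the signal is highest at Hbegf and lowest at Ereg, while Epgn has no shared promoter region.

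Egfr encodes the receptor that EGF, amphiregulin and transforming growth factor alpha bind. Its promoter region, chr11:16752101-16752340 in the build mm10, had a signal of 3.69 in replicate 1 and 3.09 in replicate 2 (mean 3.39 ± 0.43, SD, n = 2). Their Poisson 95% intervals, which assume 1 cut per step, were 3.42 to 3.97 and 2.79 to 3.41 and did not overlap. After scaling, the log2 ratio of replicate 1 to replicate 2 was -0.13, above 46.1% of all shared regions. The mean signal stood above 38.2% of all open promoters. The bases upstream of the start site are shown because a footprint of both replicates, chr11:16752194-16752207, holds the centre of a GC box there, the binding sequence of SP and KLF factors, whose first base lies outside it. A motif is said here to lie in a footprint where its centre does. The sequence is RefSeq's, from GRCm38.p6, chr11:16751953-16752202 on the plus strand, with a match to the ETS motif CCGGAAG and 1 to the GC box GGGCGGG in capitals, both of them read on the opposite strand.
Egfr upstream: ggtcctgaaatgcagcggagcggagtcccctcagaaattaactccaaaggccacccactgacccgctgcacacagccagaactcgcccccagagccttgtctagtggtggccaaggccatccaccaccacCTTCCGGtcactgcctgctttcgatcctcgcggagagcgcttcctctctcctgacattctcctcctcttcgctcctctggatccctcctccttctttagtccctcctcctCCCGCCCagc
The GC box lies at the 3′ end of the window, next to the start site. In 300-base windows around all 32851 RefSeq start sites a GC box was found in 25.6% and the ETS motif in 8.86%.

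The Egfr locus held 16 shared regions, the most of the 10 loci, and 10 of them lay in intron 1. Its density was 7.77 per 100 kb, above 67.2% of all genes and below that of Erbb2, Erbb3, Hbegf and Ereg. The strongest outside promoters, chr11:16800621-16800860 in intron 1, was 48.5 kb downstream of the start and had signals of 2.71 and 1.89 in replicates 1 and 2. The next, chr11:16871181-16871380 in intron 8, had 2.50 and 1.57, and the one after that, chr11:16769361-16769540 in intron 1, had 1.33 and 1.61. The first 2 were higher in replicate 1 and the last in replicate 2. A region at exon 13, at the start of a shorter annotated transcript, had 1.19 and 0.759. Egfros, an antisense transcript inside Egfr, had its own start in a region of 1.20 and 0.935, and DNase-seq does not give a strand. The most downstream annotated start of Egfr had no peak in either replicate.

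Erbb2, the partner receptor without a ligand, had promoter signals of 3.94 and 2.95 (3.45 ± 0.70, SD, n = 2) at chr11:98412281-98412620. Replicate 1 was the higher, with Poisson 95% intervals of 3.67 to 4.23 and 2.66 to 3.27, and the scaled log2 ratio of 0.02 put the difference near that of all shared regions. The locus held 10 shared regions, or 15.3 per 100 kb, above 91.4% of all genes. Of these, 5 lay at promoters of the neighbouring genes, among them Mien1 at 8.64 and 9.23, Pgap3 at 3.88 and 3.64, and the adaptor gene Grb7 with 3 regions between 1.23 and 2.24. The strongest region outside promoters lay in intron 1, chr11:98418961-98419260, with signals of 3.57 and 2.33. It is shown because a footprint of both replicates, chr11:98419168-98419178, holds the E-box CAGCTG, in capitals below, on the plus strand of mm10. In replicate 2 that footprint, chr11:98419165-98419173, covers the E-box in part. Of all shared regions outside promoters, 21.1% held this E-box in their central 200 bp. The region also has 1 match each to the motifs of AP-1 and TEAD factors, and neither is centred in a shared footprint.
Erbb2 intron region: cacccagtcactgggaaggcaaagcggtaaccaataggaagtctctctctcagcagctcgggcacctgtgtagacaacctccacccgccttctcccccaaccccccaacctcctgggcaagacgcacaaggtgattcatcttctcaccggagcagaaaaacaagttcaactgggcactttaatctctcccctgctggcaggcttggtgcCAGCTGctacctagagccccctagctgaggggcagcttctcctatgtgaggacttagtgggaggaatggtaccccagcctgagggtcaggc
The region had 5 footprints in each replicate, 3 of them shared, and none of the 14 motifs searched was centred in the other 2 shared ones.

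The replicates differed at Erbb2 in how much of the locus was called. At an FDR of 0.05 or lower, calls covered 11.3 kb in replicate 1 and 3.72 kb in replicate 2, or 17.3% and 5.71% of the locus. This ratio of 3.03 lay above 95.5% of the 18644 genes with such bases in both replicates, whose median ratio was 1.35. At the other genes of the family the ratio ran from 1.15 at Btc to 2.19 at Hbegf, the latter above 89.7% of the 18644. Within the Erbb2 gene body alone 6.13 kb and 1.38 kb were covered, and 16 regions there had a peak of replicate 1 alone, with signals of 0.182 to 0.896. Of these 16, 5 overlapped an exon. At the promoter the lowest FDR reached a −log10 of 157 in replicate 1 and 18.1 in replicate 2. The promoter signals thus differed little after scaling while the covered bases differed more than at most genes. The part of depth in the difference was not tested.

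Erbb3, the receptor of neuregulins, had promoter signals of 2.86 and 2.55 (2.71 ± 0.22, SD, n = 2) at chr10:128589581-128590020, with 5 shared footprints. A GC box was centred in 1 of these, chr10:128589803-128589815, which covers it in part, and not in the overlapping footprint of replicate 2. The locus held 9 shared regions, and the strongest were promoters of its neighbours: Pa2g4 at 11.3 and 10.2, Zc3h10 at 7.01 and 5.58, and the ribosomal protein gene Rpl41 at 6.58 and 5.23. None of the 9 lay outside promoters of any annotated gene, since 2 regions inside Erbb3 are within 1 kb of the start of the microRNA gene Mir6917. With promoters of protein-coding genes alone, those 2 counted as outside promoters.

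The stronger of these 2 was singled out after its values were seen. It is chr10:128584541-128584720 in intron 3, with signals of 4.20 in replicate 1 and 1.66 in replicate 2. It was above the Erbb3 promoter in replicate 1 and below it in replicate 2. Its scaled log2 ratio was 0.94, above 98.9% of all shared regions, against -0.23 at the promoter. The median scaled log2 ratio over open marker promoters was -0.07 for urothelium, 0.09 for smooth muscle, -0.09 for stroma, 0.17 for endothelium and -0.06 for nerve and glia, and the part of cell composition in the difference at intron 3 was not tested. In steps, the region held 806 in replicate 1 and 208 in replicate 2. The sequence is given as that of the region with the highest ratio of replicate 1 to replicate 2 at a receptor gene, on the plus strand of mm10, and none of the 14 motifs searched lay in its 2 shared footprints.
Erbb3 intron region: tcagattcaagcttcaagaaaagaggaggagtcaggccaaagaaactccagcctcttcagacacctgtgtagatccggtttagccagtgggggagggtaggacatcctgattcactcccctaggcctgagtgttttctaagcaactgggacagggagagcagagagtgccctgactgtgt
The second region, in intron 4, had 2.10 and 1.22.

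**Figure D2:**
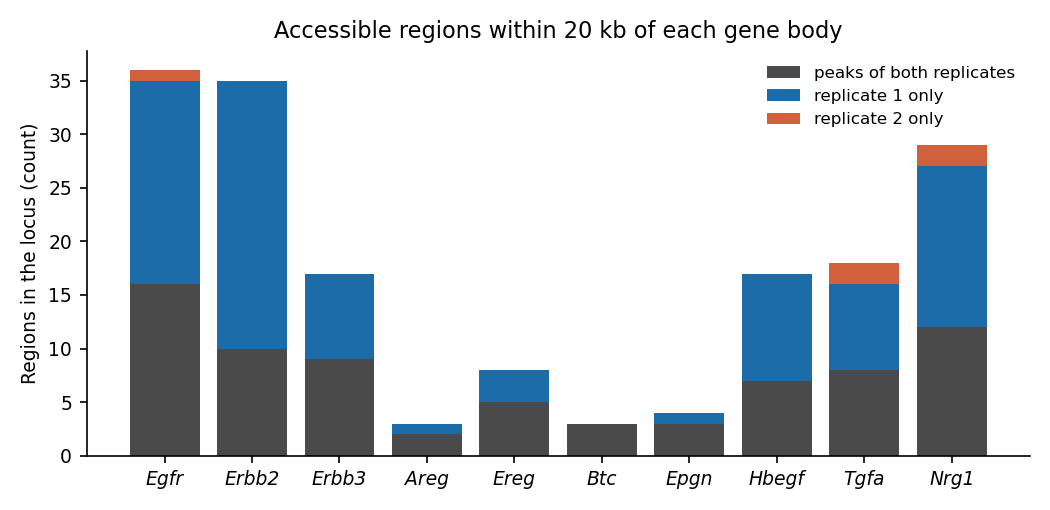
Number of regions within 20 kb of each gene body, split into regions with peaks of both replicates, of replicate 1 alone and of replicate 2 alone. Egfr has the most shared regions, 16, and Erbb2 the most with a peak of replicate 1 alone, 25.

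The 4 ligand genes Epgn, Ereg, Areg and Btc are neighbours on chromosome 5, within chr5:91007464-91422994 when 20 kb on each side is included. In these 416 kb lay 19 shared regions, or 4.57 per 100 kb, with 9 more of replicate 1 alone and 0 of replicate 2 alone. Of the 19, 13 lay in the locus of at least 1 of the 4 genes and 6 between Areg and Btc. By the nearest of the 4 start sites, 3 were nearest to Epgn, 3 to Ereg, 6 to Areg and 7 to Btc. The strongest of the 6 in between, chosen after its value was seen, had 1.41 and 0.919 and lay at the start of the long non-coding RNA gene Gm19619.

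Epgn encodes epigen, a ligand of the EGF receptor. Its start site had no shared region: replicate 1 had a peak of 0.318 there with 93 bases at the FDR threshold within 1 kb, and replicate 2 had neither peak nor such bases. The strongest region of the whole neighbourhood nonetheless lay in the Epgn locus, downstream of the gene and 11.4 kb from its start, at chr5:91038721-91038940. Its signal was 5.69 in replicate 1 and 4.14 in replicate 2 (4.92 ± 1.1, SD, n = 2), above 98.2% of the 45309 shared regions outside promoters. In both replicates it was higher than every promoter region of Ereg, Areg and Btc. Among the 7438 genes without an open promoter, 2.66% had a shared region outside promoters as strong in their locus. Which gene it acts on, if any, was not measured.

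This region carries 3 shared footprints, and 2 of them hold searched motifs, which is why its sequence is given. The footprint chr5:91038818-91038855 of replicate 1, chr5:91038820-91038847 in replicate 2, holds the E-box CAGCTG and the AP-1 motif TGANTCA, 1 base apart and not overlapping. In replicate 2 it covers the E-box in full and the AP-1 match in part. AP-1 is the dimer of FOS and JUN factors that growth factor signalling induces. The footprint chr5:91038766-91038788 holds the motif GGAATG of TEAD factors, which work with YAP, read here as a match that extends past the footprint's end. The sequence is from the plus strand of mm10, with the 3 matches in capitals.
Epgn downstream region: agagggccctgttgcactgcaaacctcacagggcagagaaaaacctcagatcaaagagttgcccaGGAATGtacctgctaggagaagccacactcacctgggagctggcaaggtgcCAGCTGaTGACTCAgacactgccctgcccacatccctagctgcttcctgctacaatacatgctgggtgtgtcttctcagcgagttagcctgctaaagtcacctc
The AP-1 and E-box matches were centred in the footprints of both replicates, and the TEAD match in that of replicate 1 alone. The other 2 shared regions of Epgn were weak, at 0.484 and 0.360 for the one 8.06 kb from the start and at 0.297 and 0.312 for the one 9.40 kb from it.

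Ereg encodes epiregulin, a ligand of EGFR and ErbB4, and had the weakest open promoter of the 9. Its region chr5:91074481-91074948 had signals of 0.776 and 0.632 (0.704 ± 0.10, SD, n = 2), above 5.99% of all open promoters. With the stricter peak list this promoter was no longer open, and the count for the family was then 8. The region also covers the start of Gm19610, an antisense transcript that runs away from Ereg. All 3 of its shared regions outside promoters lay downstream of the gene. The first, 23.8 kb from the start, had 1.06 in replicate 1 and 0.624 in replicate 2, so that it was above the promoter in replicate 1 and just below it in replicate 2. It is shown for an AP-1 match, in capitals, that a footprint covers in part in replicate 1, chr5:91098355-91098366, and in full in replicate 2, chr5:91098359-91098386. The coordinates of the region are chr5:91098261-91098540, mm10, plus strand.
Ereg downstream region: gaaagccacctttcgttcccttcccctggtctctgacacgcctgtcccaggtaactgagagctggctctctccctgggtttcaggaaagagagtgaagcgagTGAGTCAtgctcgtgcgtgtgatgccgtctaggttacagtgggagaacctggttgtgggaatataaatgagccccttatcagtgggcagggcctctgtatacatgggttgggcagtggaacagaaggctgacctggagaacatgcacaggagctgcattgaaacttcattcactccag
The region 36.6 kb from the start, at 0.635 and 0.520, also held an AP-1 match in a footprint of both replicates, chr5:91111151-91111157. The region 35.6 kb from the start, at 0.854 and 0.512, held none of the motifs. Within Ereg itself replicate 1 had a peak of 0.713 where replicate 2 had none.

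Areg encodes amphiregulin, a ligand of EGFR with a heparin-binding stretch. Its promoter region chr5:91139441-91139880 had signals of 1.50 and 1.32 (1.41 ± 0.13, SD, n = 2), with Poisson 95% intervals of 1.34 to 1.69 and 1.13 to 1.54 that overlapped. It held 6 footprints in replicate 1 and 5 in replicate 2, and 3 were shared. The footprint chr5:91139534-91139554, chr5:91139537-91139544 in replicate 2, holds the cyclic AMP response element (CRE) TGACGTCA, the palindrome that CREB and ATF factors bind. The last base of the CRE lies outside the footprint of replicate 2. The sequence upstream of the start is RefSeq's, from GRCm38.p6, chr5:91139349-91139598 on the plus strand, with the E-box CAGCTG and the CRE in capitals.
Areg upstream: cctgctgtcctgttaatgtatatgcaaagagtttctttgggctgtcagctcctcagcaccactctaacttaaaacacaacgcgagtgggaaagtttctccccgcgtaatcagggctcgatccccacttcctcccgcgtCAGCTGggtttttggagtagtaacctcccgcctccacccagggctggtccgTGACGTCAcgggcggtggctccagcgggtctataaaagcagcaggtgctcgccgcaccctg
A CRE was found in 1.79% and the E-box in 16.3% of the 32851 RefSeq windows of 300 bases. The other shared region of Areg, 17.2 kb downstream of its start at chr5:91156741-91156920, had 1.10 in replicate 1 and 0.424 in replicate 2. Its scaled log2 ratio of 0.98 was the highest of all shared regions in the 10 loci and above 99.1% of those of the genome, while the Areg promoter was at -0.20.

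Btc encodes betacellulin, a ligand of EGFR and ErbB4, and runs towards the other 3 genes from the far end. Its promoter region chr5:91402741-91403120 had 2.03 and 1.95 (1.99 ± 0.053, SD, n = 2), the smallest SD among the 9 open promoters in the deposited signal. After scaling, its log2 ratio of -0.34 was the farthest from 0 of the 9. It held 8 and 7 footprints, of which 5 were shared, and 1 of these, chr5:91402887-91402902, covers a GC box. A second region over intron 1 within 1 kb of a start had 0.838 and 0.648. The region outside promoters in intron 2 was weak, at 0.344 and 0.408, and the start of the transcript Btc-203 had no peak. Btc was also the 1 locus without any region of a single replicate.

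**Figure D3:**
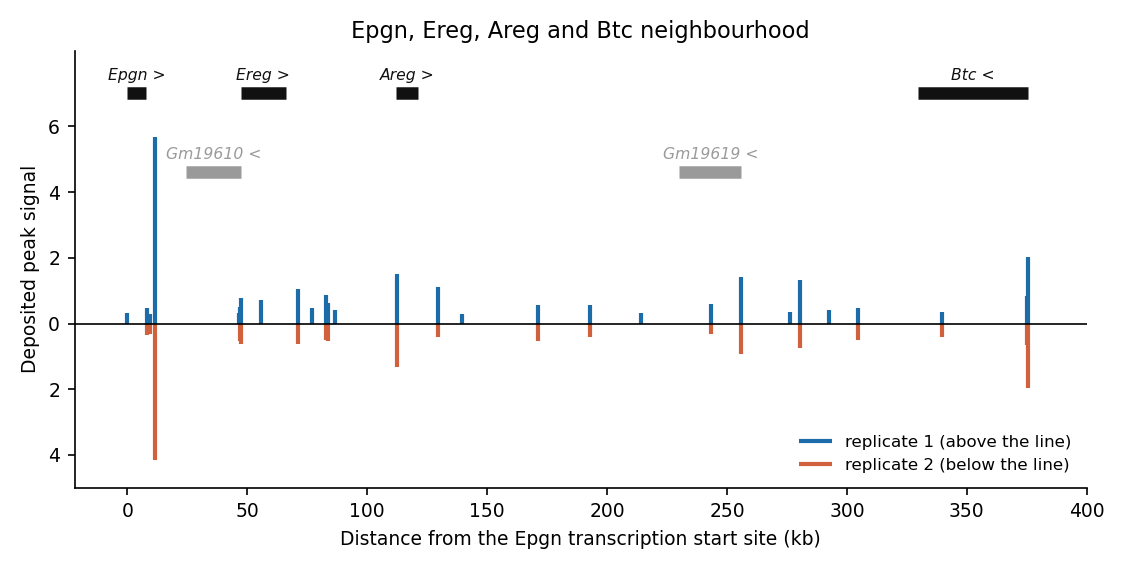
Peak signal of every region of the Epgn to Btc neighbourhood against its distance in kb from the Epgn start, replicate 1 above the line and replicate 2 below it, with the genes drawn to scale and their direction given by an arrowhead. The tallest bars, 5.69 and 4.14, stand 11.4 kb from the Epgn start, while the start itself has a peak of replicate 1 alone.

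Hbegf encodes heparin-binding EGF-like growth factor. Its promoter was the strongest of the family, at 5.37 and 4.25 (4.81 ± 0.79, SD, n = 2) and above 51.8% of all open promoters. It held 5 shared footprints. A region 9.91 kb upstream of the start had 4.53 in both replicates, which put it above 97.7% of shared regions outside promoters. That region was weaker than the promoter in replicate 1 and stronger in replicate 2, and it lay nearer to the start of Slc4a9, a bicarbonate transporter gene, than to that of Hbegf. A region 19.0 kb upstream had 2.89 and 1.69, and 1 in intron 2 had 1.30 and 0.911. The locus held 13.8 shared regions per 100 kb, above 88.3% of all genes.

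Tgfa encodes transforming growth factor alpha. Its promoter region chr6:86195001-86195440 had 2.58 and 2.40 (2.49 ± 0.13, SD, n = 2), with 5 shared footprints, of which chr6:86195204-86195214 holds a GC box. In intron 1 the region chr6:86219581-86219840 had 2.72 and 1.53, above the promoter in replicate 1 and below it in replicate 2. A second region of intron 1, chr6:86222421-86222620, had 1.97 and 1.22 and 3 shared footprints. Of these, chr6:86222499-86222520 holds the motif AACCGGTT of Grainyhead-like (GRHL) factors, which govern epithelial differentiation and in the urothelium include Grhl3. The motif lay in 0.213% of all shared regions, and of the 75 in the 10 loci this was the 1 that held it. The sequence is from the plus strand of mm10, with the motif in capitals.
Tgfa intron region: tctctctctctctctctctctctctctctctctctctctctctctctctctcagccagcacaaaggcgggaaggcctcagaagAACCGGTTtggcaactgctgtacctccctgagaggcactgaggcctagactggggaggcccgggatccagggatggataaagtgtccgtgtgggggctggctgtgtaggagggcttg
The motif follows a stretch of a simple repeat of ct. The Grhl3 promoter itself was open, at 2.41 and 2.33. Upstream of Tgfa, a region 1.20 kb from the start, outside the promoter window, had 1.88 and 1.21.

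Nrg1, which encodes the neuregulin 1 isoforms, is the longest of the 10 genes at 1069 kb, and the annotation gives it 15 start sites. They fall into 5 groups of starts that lie within 2 kb of each other, and 7 of the 15 were open. The first group, of 2 starts, had a weak region of 0.307 and 0.408. The second group, of 5 starts, lies 875 kb further along and had the promoter counted here, chr8:32009601-32009840, at 3.76 and 2.82 (3.29 ± 0.66, SD, n = 2). The third, of 1 start, had no peak, and neither had the last, also of 1 start. In the group between these, of 6 starts, 4 had a peak of replicate 2 alone within 1 kb. The starts in the second group thus stood far above those of the others in both replicates. The promoter region there also overlaps the annotated gene Gm26578, so its signal cannot be credited to Nrg1 alone.

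Outside promoters Nrg1 held 8 shared regions, all inside the gene body. The strongest, chr8:32293201-32293400, had 2.15 and 1.50 and lay 284 kb upstream of the second group, in the stretch between it and the first group. Another, 277 kb upstream, had 1.37 and 0.863, and 1 at 205 kb had 0.890 and 0.568. A weaker one 210 kb upstream, named after its values were seen, at 0.812 and 0.600, held an AP-1 match in a footprint of both replicates, chr8:32219095-32219101. The locus as a whole held 1.08 shared regions per 100 kb, above 19.5% of all genes and the lowest of the 10.

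**Figure D4:**
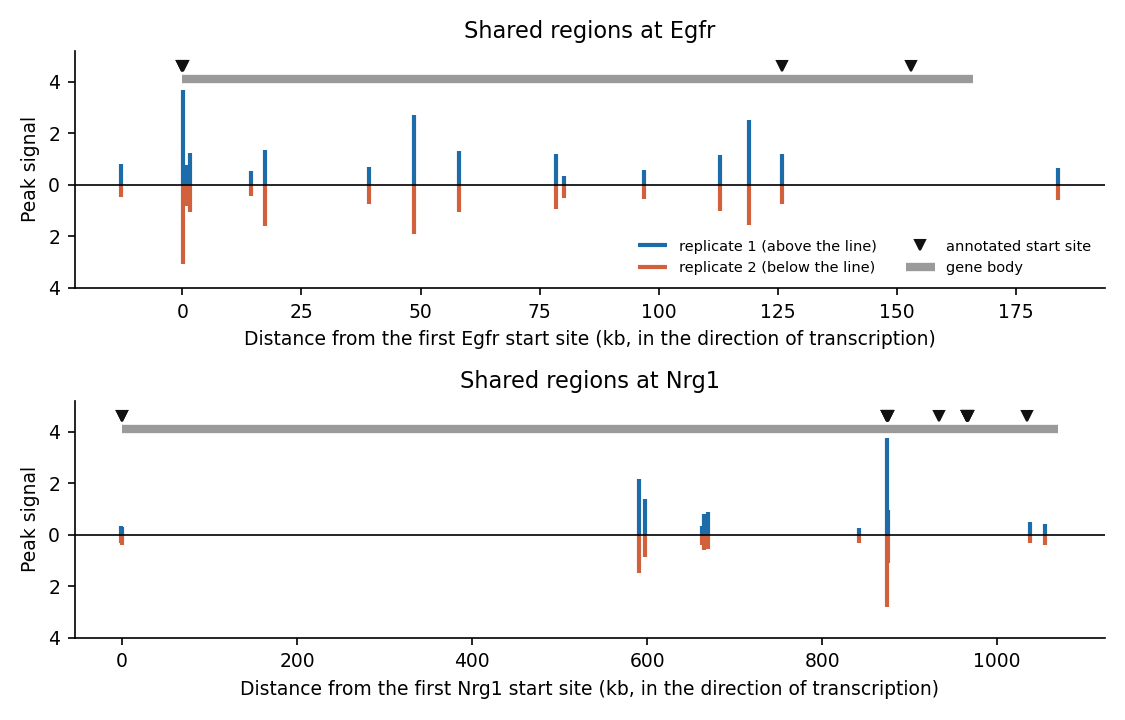
Peak signal of the shared regions of Egfr and Nrg1 against the distance in kb from the first annotated start site, replicate 1 above the line and replicate 2 below it, with start sites as triangles and the gene body as a grey bar. At Egfr the tallest bars stand at the first start, and at Nrg1 they stand 875 kb from it, at the second group of starts.

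The 10 loci together held 75 shared regions, with 90 of replicate 1 alone and 5 of replicate 2 alone. Of the 75, 20 lay at promoters of the genes themselves, 15 at promoters of other genes and 40 outside promoters. The median density was 7.20 shared regions per 100 kb, against 4.96 over all protein-coding genes. The scaled log2 ratio of the replicates had a median of -0.05 over the 75 and ran from -0.97 to 0.98, and with the signals as deposited the median was 0.35, higher in replicate 1. Footprints numbered 371 in replicate 1 and 203 in replicate 2, and 120 of those of replicate 1, or 32.3%, overlapped one of replicate 2, against 35.9% over the genome. Calls at an FDR of 0.05 or lower covered 47.6 kb in replicate 1 and 24.9 kb in replicate 2 of the 1855 kb that the loci cover.

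Signals outside promoters were mostly below those of the genes' own promoters. For none of the 9 genes with an open promoter did a shared region outside promoters exceed it in both replicates. Erbb3 held no region outside promoters, so its outcome was fixed. Of all 14500 genes with an open promoter 16.7% had a region that exceeded it in both, and no difference from this share is claimed for 9 genes. Hbegf, Tgfa and Ereg had a region outside promoters that exceeded the promoter in 1 replicate and not in the other. The strongest region outside promoters per locus had a median of 1.98 over the 10 loci, with Erbb3, which had none, taken as 0. It was highest at Epgn and Hbegf, and lowest, among the loci that had one, at Btc.

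**Figure D5:**
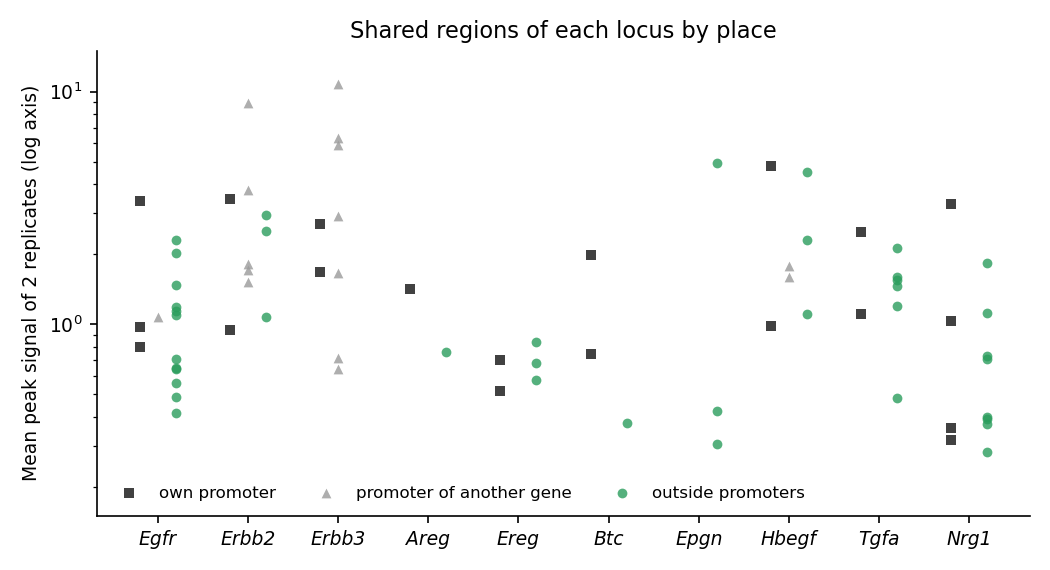
Mean peak signal of the replicates (log axis) of each shared region in the 10 loci, 1 point per region, by whether it lies at a promoter of the gene, at a promoter of another annotated gene or outside promoters. The point of Epgn at 4.92 is the highest outside promoters, and the highest of all, at Erbb3, is the promoter of its neighbour Pa2g4.

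Motifs were counted in the central 200 bp of each shared region, on both strands. The AP-1 motif lay in 17 of the 75 regions, or 22.7% (Wilson 95% interval 14.7% to 33.3%, counting error only), against 11.5% of all 73164 shared regions. Outside promoters it lay in 12 of 40, against 15.3% of all such regions. With the peaks of replicate 1 alone the AP-1 motif lay in 15.7% of 166 regions in the loci, against 12.3% of all. With those of replicate 2 alone it lay in 23.2% of 82, against 10.6%. The TEAD motif lay in 14 of 75, or 18.7% (Wilson interval 11.5% to 28.9%), against 12.3%. The CACCC box GGGTGTG lay in 11 of 75, or 14.7% (8.39% to 24.4%), against 7.29%. The GATA motif AGATAA lay in 2 of 75, or 2.67% (0.734% to 9.21%), against 6.47%, which lies within the interval. The E-box CAGCTG lay in 16 of 75, or 21.3% (13.6% to 31.9%), against 18.3%. The GC box lay in 7 of 75, or 9.33% (4.59% to 18.0%), against 15.9%, and all 7 of these regions were at promoters. Regions of 1 locus share their neighbourhood, so these shares describe the loci and carry no test. A motif was centred in 19 of the 120 shared footprints, and 1 of these held both AP-1 and the E-box. The GC box was in 7, or 5.83%, against 7.95% of all 119023 shared footprints. AP-1 and TEAD were in 4 each, or 3.33%, against 0.660% and 0.968%. The CAGCTG E-box was in 2, or 1.67%, against 2.09%. The CRE, GRHL motif and CACCC box were in 1 each, or 0.833%, against 0.512%, 0.0420% and 0.746%. RefSeq promoter windows were at hand for 6 of the 10 genes, and their GC content ran from 47.3% at Epgn to 70.7% at Tgfa, against a median of 52.7% over all windows.

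The other genes of the pathway were read from 5 lists, which were chosen with earlier results of these data known. Values over the lists therefore describe them and carry no test. All 59 of 59 genes had an open promoter, against 66.1% of all protein-coding genes. The median of their mean signals was 5.79, against 4.61 over all open promoters. Of the remaining receptors and ligands all 5 were open. Egf, the founding ligand, was at 5.58 ± 0.35 (SD, n = 2). The neuregulin genes Nrg2 and Nrg4 were at 1.98 ± 0.014 and 1.80 ± 0.16, and the receptor gene Erbb4 at 0.691 ± 0.25. Nrg3 was the lowest, at 0.409 ± 0.22. Of the genes of ligand shedding 8 of 8 were open, led by the membrane proteases Adam9 (14.5 ± 3.1), Adam10 (12.9 ± 0.68), Adam17 (9.47 ± 0.75), which releases amphiregulin and transforming growth factor alpha, and Adam15 (5.75 ± 0.64). All 4 means were above that of Hbegf, the strongest of the 10 genes, and the other 4 of the list were below it. In the 5 lists, 5 promoter regions also lie within 1 kb of a start of another protein-coding gene: those of Nrg4 with Tmem266, Adam9 with Tm2d2, Shc1 with Cks1b, Hras with Lrrc56 and Socs4 with Wdhd1.

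Adaptors and transmitting proteins were open in 20 of 20 cases. The highest were Map2k1, the kinase of ERK (18.5 ± 4.2, SD, n = 2), the transcription factor gene Stat3 (17.3 ± 6.0), the adaptor gene Grb2 (12.3 ± 1.4) and Hras (11.3 ± 1.2). Feedback inhibitors were open in 16 of 16 cases. Cbl (12.4 ± 0.50) and Cblb (11.3 ± 0.92), ubiquitin ligases that send receptors to degradation, led them, followed by the receptor inhibitor gene Lrig2 (11.2 ± 1.7) and the ERK phosphatase gene Dusp5 (10.6 ± 1.1). Nuclear factors that respond to ERK were open in 10 of 10 cases, with Etv5 (11.4 ± 1.0) and Egr1 (9.10 ± 1.3) highest, then Elk4 (5.79 ± 0.58) and Ier3 (5.10 ± 0.68). The lowest list median was that of the other receptors and ligands, 1.80, and the highest that of the adaptors, 8.28.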

How the data were processed

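The 2 libraries form 1 group of biological replicates, which the labels give the same donor entry. They do not say whether the animals were littermates, so the SD may not be that of independent animals. Each file was made from 1 library without pooling on the build mm10, per the notes deposited with the samples. The aligner and callers were not given in the sources used here. As deposited, the signal of a peak is the authors' density, whose scaling is not stated. The deposited FDR track gives the authors' p-value or q-value per stretch, 0.05 or lower. Footprints all carry 1 value, 0.01, and were used as positions.

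Peaks overlapping by at least 1 bp were joined, and shared footprints are those of replicate 1 that overlap one of replicate 2. Distances run from a region's centre to the nearest start of the gene, in GENCODE M21. Signals carry no pseudocount. No test was run, since the design holds 1 group, and p-values are not given. Motifs were 14 consensus sequences. All 10 genes, up to 3 regions outside promoters per locus and the 4 highest open genes per pathway list are named by rule, and other regions were chosen after their values were seen. The members and lists were chosen with earlier results of these data known. Alternatives were the stricter peak list, equal peak numbers, 50% overlap, flanks of 10 and 50 kb, promoter windows of 500 and 2500 bp, FDR of 0.01 and 0.001, unscaled signals, 100 bp motif windows and each replicate alone. Sequence of Hbegf is not given, and 2 marker genes of nerve and glia are not reported here. Tools were scipy 1.17.1, pandas 2.3.3, matplotlib 3.10.9 and numpy 2.4.6 under Python 3.11.15. On simulated data, 99.5% of planted partners among 139821 peaks and 200 of 200 planted promoters among 22028 genes were recovered.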

Additional observations from a re-analysis of the deposited data

How the results depend on the processing

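Egfr, Erbb2, Erbb3, Areg, Btc, Hbegf, Tgfa and Nrg1 had an open promoter under each of the 7 alternatives run for it. Epgn was open with replicate 1 alone, and Ereg was not with the stricter list. Counts of regions moved with the list: the stricter one left 44 of the 75 shared regions in the loci and 6 of the 19 in the Epgn to Btc neighbourhood. Without 1 or the other replicate these counts ranged from 82 to 166 and from 20 to 29, and footprints from 203 to 371 against 120 shared, since a single replicate needs no overlap. With a flank of 50 kb the median of the strongest region outside promoters rose from 1.98 to 3.41, since longer loci hold more regions. Counting only promoters of protein-coding genes, a choice made after seeing the data, gave 44 regions outside promoters against 40. The remaining 49 alternatives of the summary values, and 63 of single genes or regions, stayed within 1.5 times the count or within the spread of the replicates. No paired analysis was possible because the design holds 1 group. The depth of the libraries is not known, and what it limits was not tested.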
